A study of Mus musculus with 6 samples.

Results

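Trypsinogens are the inactive precursors of trypsin, the digestive protease that cuts proteins after lysine and arginine. Acinar cells of the exocrine pancreas make them, store them in zymogen granules and secrete them into the gut, where enteropeptidase removes a short activation peptide; the trypsin released then activates the other pancreatic zymogens. The mouse carries many near-identical trypsinogen genes side by side within the T cell receptor beta locus. The 7 genes described here are Prss1, Prss2, Prss3, Try4, Try5, Try10 and 2210010C04Rik, chosen by symbol as the trypsinogen cluster and its paralogs. All 7 were found among the 14681 genes of the authors' deposited table, so none was absent.

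The samples were dorsal pancreas from C57BL/6 mouse embryos at embryonic day 18.5, shortly before birth. They comprised 3 knockout samples, labelled Dpy30∆P in the extraction protocol, and 3 control samples. Dpy30 is a core subunit of the complexes that methylate lysine 4 of histone H3; the labels name neither the driver of its deletion nor the genotype of the controls. The name of the deposited table speaks of a Pdx1 knockout, whereas the labels speak of Dpy30; which gene was deleted is taken here from the labels. RNA was depleted of ribosomal RNA, and stranded libraries were made from small amounts of it.

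For each gene the table gives a single mean of normalized counts for the 6 libraries together, a shrunken log2 fold change, a p and an adjusted p. The depth and spread of single libraries are therefore unknown, and no value per sample can be given. The mean counts of all genes summed to 3663175. The table does not state which group is the numerator of its fold changes. Here a negative value is read as lower in knockout pancreas, on the usual convention, and every direction given here would be opposite under the reverse convention. Dpy30 itself did not settle this, with a mean count of 29.4 and an unshrunken log2 fold change of 0.50 ± 1.66 (SE). In the authors' deposited table Pdx1 had a mean count of 52.7 and a shrunken value of -0.03 ± 0.22 in log2 units (posterior SD), with an adjusted p of 1.00. Nothing states whether each library came from a separate embryo, beyond the dissection of 3 embryos of each kind, so the p-values reflect only how these samples vary, which may be technical.

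All 7 genes lie on chromosome 6 within 494.8 kb (GENCODE M21, GRCm38), each with 5 exons. Try4 (41302269 to 41305532, plus strand), Try5 (41311233 to 41316841, minus strand), Try10 (41354105 to 41357914, plus strand), Prss3 (41373814 to 41377678, minus strand), Prss1 (41458932 to 41463786, plus strand) and Prss2 (41521787 to 41525079, plus strand) form a cluster of 222.8 kb. The gene 2210010C04Rik (41030268 to 41035509, minus strand) stands apart, 266.8 kb before Try4. GENCODE also annotates 4 other trypsin-like genes there that are in the table: Gm5771 and Gm10334 between Prss3 and Prss1, and 1810009J06Rik and Gm2663 before 2210010C04Rik.

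The activation site shows what the 7 genes share. The coding bases of the 7 members at the site that enteropeptidase recognises, together with the first residues of the released enzyme, are printed 5′ to 3′ from the GENCODE transcripts, with capitals where a gene differs from Prss2.
Prss2: gatgatgatgacaagattgttggagga
Prss1: gatgatgatgacaagatCgttggagga
Prss3: gatgatgatgacaagatCgttggagga
Try4: gatgatgatgacaagatCgttggagga
Try5: gatgatgatgacaagatCgttggagga
Try10: gatgatgatgacaagatAgttggagga
2210010C04Rik: gatgatgatgacaaAattgttggaggC
Each of the 7 encodes the same 9 residues here, starting at residue 19 in 6 members and at residue 20 in 2210010C04Rik. Gm10334 also encodes them, while Gm5771, 1810009J06Rik and Gm2663 did not match this stretch.

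Over whole proteins, identity between pairs of members ran from 74.5% to 98.0%, with a median of 90.2% over 21 pairs. The lowest 6 of these pairs are those with 2210010C04Rik, at 77.7% or less. Try4 and Try5 were the closest pair, at 98.0% of protein residues. Their coding sequences differ at 19 of 738 bases and share an identical run of 274 bases. The first 60 coding bases of both are printed because these near-identical neighbours had fold changes of opposite sign; capitals mark the bases that differ from the other gene.
Try4: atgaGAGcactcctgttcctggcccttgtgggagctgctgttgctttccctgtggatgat
Try5: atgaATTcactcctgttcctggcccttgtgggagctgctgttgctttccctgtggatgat
Reads shorter than such shared runs can be counted to either gene, so how much of each gene is its own matters for every value that follows.

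The share of each transcript's stretches of 31 bases that occur in no other gene of the GENCODE transcriptome was 99.95% for 2210010C04Rik and 77.5% for Prss2. It was 41.5% for Try10, 34.0% for Try5, 30.7% for Prss1, 24.6% for Prss3 and 17.3% for Try4. Try4 shared 57.6% of its stretches with Try5, Prss1 shared 54.8% with Gm5771, and Prss3 shared 73.7% with Gm10334. Values of 2210010C04Rik, and for the most part of Prss2, thus rest on sequence of their own, whereas the other 5 are uncertain as single copies and firmer as sums over copies.

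**Figure D1:**
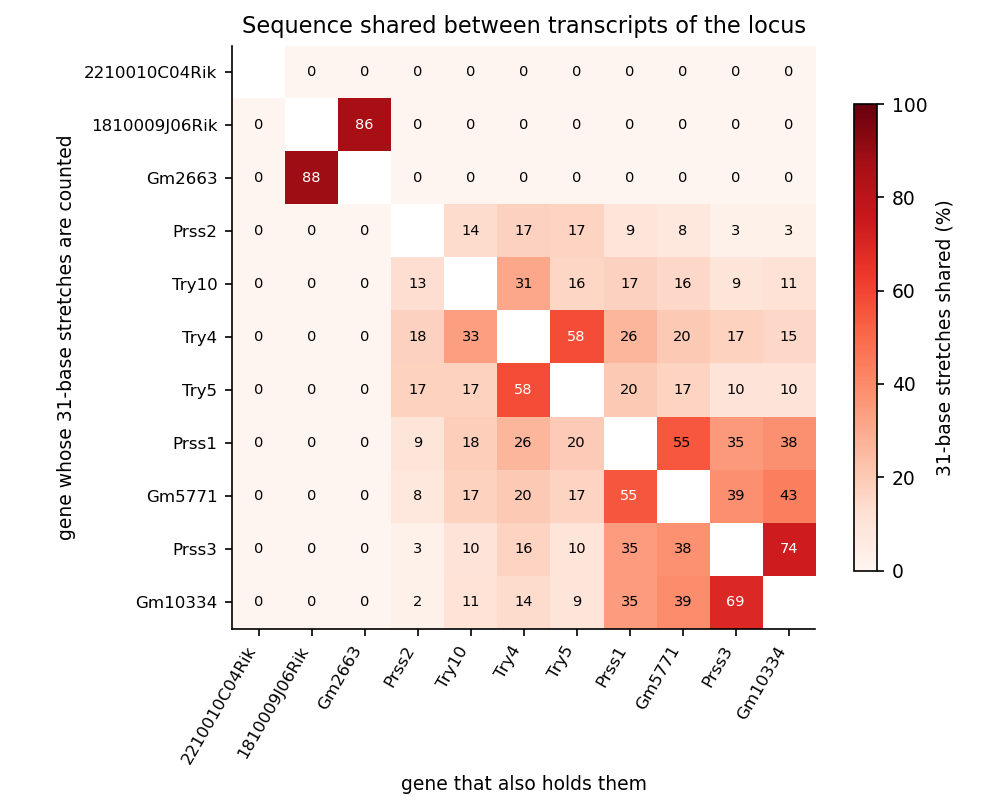
Percentage of the 31-base stretches of each transcript (rows) that are also found in the transcript of another gene of the locus (columns), for the 7 members and 4 other trypsin-like genes. 2210010C04Rik shares 0% with each of the other genes shown, Prss2 shares at most 17.2% with a single gene, and Prss3 shares 73.7% with Gm10334.

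Trypsinogens were among the most abundant transcripts of the organ, and 6 of the 7 members ranked between 8 and 28 of all genes by mean count. The 7 members together held 2.82% of all mean normalized counts, and with the 4 other copies 3.33%. The 23 acinar enzymes outside the locus that were in the table held 15.1%. That list also holds secretory proteins that are not enzymes, among them Clps, Dmbt1, Sycn and Zg16. It is called acinar enzymes for short. Per kb of GENCODE transcript, the mean normalized count over all libraries was highest for Try5, at 41642 per kb. It was followed by Prss3 at 28629 per kb and Prss2 at 19270.5 per kb. Try4 (11810.4 per kb), Prss1 (11665 per kb) and Try10 (11209 per kb) were close together. 2210010C04Rik was the least abundant, at 961 per kb, although its mean count of 2058 still placed it at rank 162 of the table. Whether neighbours in this order differ beyond their spread cannot be said from 1 mean per gene.

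In knockout pancreas, 4 of the 7 trypsinogen genes fell, none was called higher, and 3 did not pass the authors' DESeq2 test at an adjusted p under 0.05. The 4 were 2210010C04Rik, Prss2, Try5 and Prss1. Across the table, 0.479% of 12108 genes were called lower and 0.264% higher. Among the 161 genes with an adjusted p that were at least as abundant as the least abundant member, 11.8% were called lower and 2.48% higher. Before adjustment, all 7 members had a p under 0.05, 6 of them lower and Try4 higher, where 2.7% of 14386 genes were lower and 2.7% higher. The members were chosen with these results known, so the counts describe them and test nothing about the family.

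The gene 2210010C04Rik, given in the table by a clone name and carrying the activation site of a trypsinogen, was the lowest. In the authors' deposited table it stood at -3.02 ± 0.38 (posterior SD) on the log2 scale, 8.10-fold lower, with an adjusted p of 3.16e-13. Prss2, one of the classical pancreatic trypsinogens, was at -2.24 ± 0.31 in the authors' deposited table, 4.73-fold lower, with an adjusted p of 3.73e-11. These are the 2 members in which most 31-base stretches occur in no other gene.

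Try5 and Prss1 were also called lower, at values nearer 0. Both calls were lost when every fold change was rescaled to pan-epithelial genes, with their mean taken as fixed. The unshrunken values were then -0.67 each (adjusted p = 0.315 for Try5 and 0.355 for Prss1). Try5, the most abundant trypsinogen, was at -1.15 ± 0.33 in the authors' deposited table, 2.22-fold lower (adjusted p = 0.0076). Prss1 was at -1.12 ± 0.36 in the authors' deposited table, 2.18-fold lower (adjusted p = 0.0144). In the authors' deposited table Try10 had a value of -0.65 ± 0.32 (adjusted p = 0.189) and Prss3 one of -0.32 ± 0.34 (adjusted p = 0.745), and neither passed.

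Try4 was the single member with a positive sign. The authors' deposited table gave it 0.96 ± 0.40, or 1.94-fold higher, and an adjusted p of 0.0854, so it did not pass over all genes. Rescaled to pan-epithelial genes its unshrunken value was 1.84 with an adjusted p of 0.000106. That rescaling adds 0.64 to every gene, from a mean of 11 well determined pan-epithelial genes weighted by precision and taken as fixed. Their values ran from -1.69 to -0.05, and Krt18, itself called lower at -1.23 ± 0.28 (SE), had the largest weight. The rescaling raised the share of all 12108 genes called higher to 1.67%, against 0.264% without it. Try4 is also the member with the least sequence of its own, and the part of read sharing with Try5 in its value was not tested.

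Shrinkage pulls uncertain fold changes towards 0. Unshrunken values and standard errors (SE) were therefore reconstructed for each gene, and all 7 members were well determined. They were -3.11 ± 0.38 for 2210010C04Rik, -2.32 ± 0.30 for Prss2, -1.30 ± 0.33 for Prss1 and -1.30 ± 0.31 for Try5. For the 3 members that were not called they were -0.86 ± 0.29 for Try10, -0.67 ± 0.33 for Prss3 and 1.20 ± 0.36 for Try4. The median over the members was -1.30, beside -0.04 over the 5711 well determined genes of the table and -1.96 over 18 well determined acinar enzymes outside the locus.

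**Figure D2:**
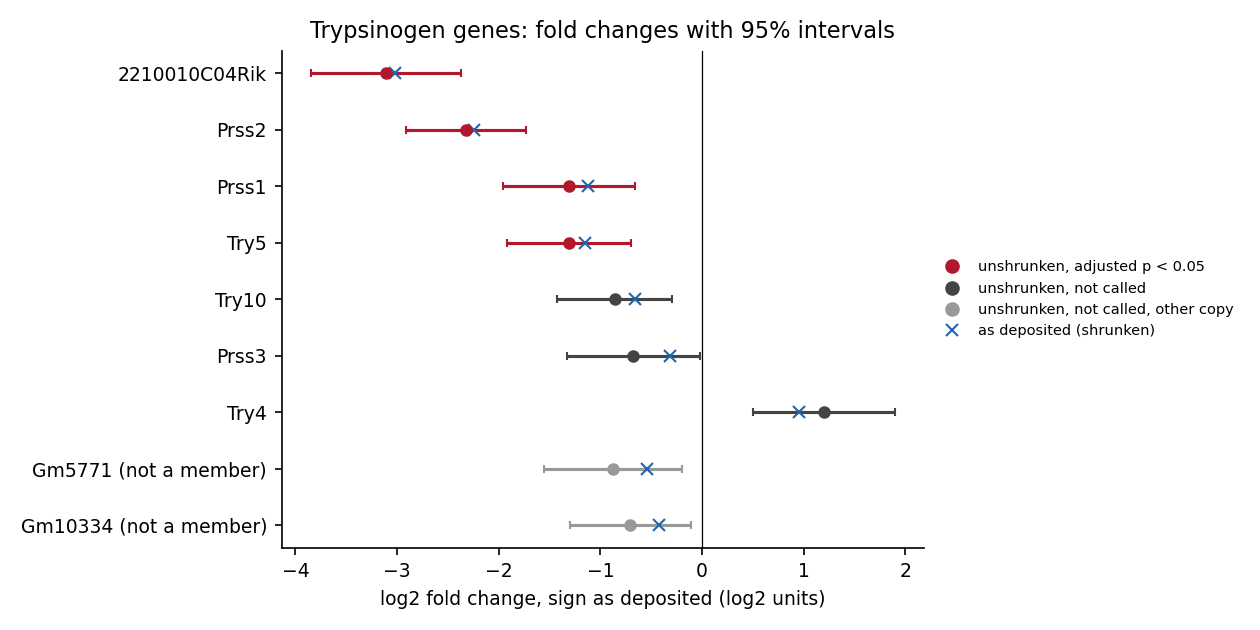
Fold changes of the 7 members (x axis, in log2 units with the deposited sign), and those of Gm5771 and Gm10334; circles are unshrunken values with 95% intervals, crosses the authors' deposited shrunken values. The intervals of the 4 called members lie below 0, that of Try4 runs from 0.50 to 1.90, and Prss3 reaches -0.02.

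The members thus spread over 4.31 log2 units, from 2210010C04Rik to Try4. Of the 21 pairs of members, 12 had 95% intervals that did not overlap. Of the 6 pairs that are neighbours in the order of fold changes, only Prss3 and Try4 had separate intervals, 1.87 log2 units apart in their values. Try4 had an interval separate from that of each other member. The estimates share libraries and, in part, reads, so the errors of these differences are not known and no test of them was made.

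Group means are not in the columns used here, but they are implied by a gene's mean count and its unshrunken fold change, with 3 libraries in each group. On this reckoning Try5 had an implied mean normalized count of 19223 in knockout and 47487 in control pancreas. Prss2 had 5236.5 in knockout and 26174 in control. 2210010C04Rik had 427 in knockout and 3689 in control. These 3 genes show the loss in counts: Prss2 and Try5 lost most in number, and 2210010C04Rik most in proportion.

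For Prss1 the implied means were 5412 in knockout and 13369 in control. Prss3 had 18136 in knockout and 28930.2 in control, and Try10 had 6850.1 in knockout and 12429 in control. Try4 alone had the larger value in knockout, 13180.3 against 5740 in control pancreas.

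**Figure D3:**
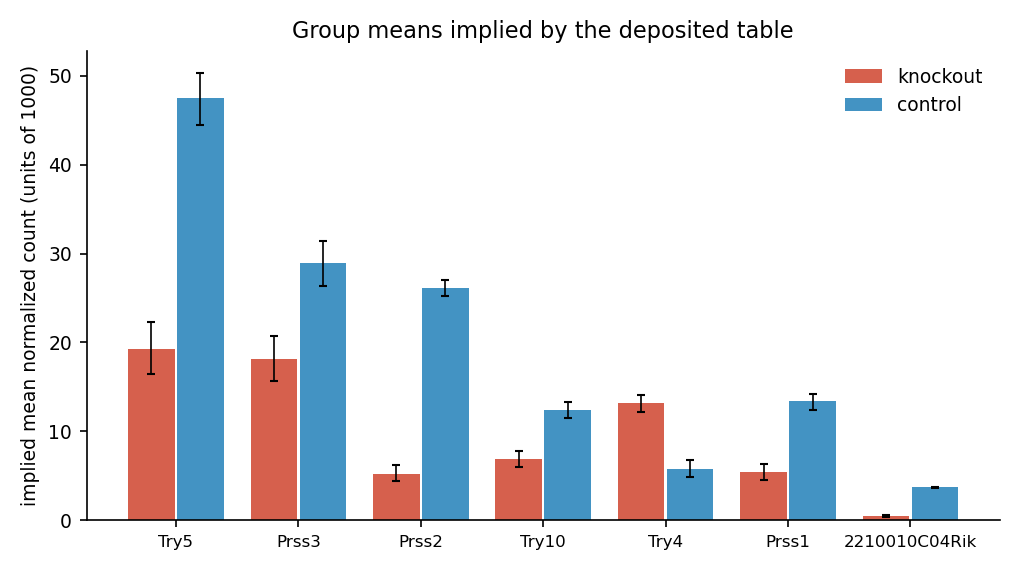
Implied mean normalized counts (y axis, units of 1000) of the 7 members in knockout (red, left) and control (blue, right) pancreas; error bars give the values at 1 SE of the log2 fold change either way, with the overall mean held fixed. Try5 stands at 19223 in knockout and 47487 in control, and Try4 is the one gene whose knockout bar is the taller.

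Summed over the 7 members, the implied count was 68465 in knockout and 137819 in control pancreas, a log2 fold change of -1.01 or 2.01-fold lower. The SE of this total would be 0.14 if the members' errors were independent and 0.29 if they were fully correlated. The sum does not depend on how reads were split among the members, although reads can still pass to and from the other copies. With the well determined copies Gm5771 and Gm10334 added, the total was 82282 in knockout and 161429 in control, a log2 fold change of -0.97. For comparison, the 18 acinar enzymes outside the locus summed to 242809 in knockout and 863795 in control, a log2 fold change of -1.83. The SE of that total would be 0.17 if independent and 0.36 if fully correlated. Of the summed mean count of 553302 of these 18 genes, Ctrb1 held 161670, Pnliprp1 117673 and Amy2a4 113567.

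Sums were also taken over 3 pairs of well determined copies, each a member with the gene it shares most 31-base stretches with, chosen after the values were seen. Each sum was negative. Try4 and Try5 together had an implied count of 32404 in knockout and 53227 in control, a log2 fold change of -0.72 (SE 0.22 if independent, 0.28 if fully correlated). Prss3 and Gm10334 together were at -0.68, and Prss1 and Gm5771 together at -1.10. The sign of the Try4 and Try5 sum follows from the larger counts of Try5, at 19223 in knockout and 47487 in control. The sum therefore does not bear on the positive value of Try4, and read sharing between these genes was not tested.

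The make-up of the trypsinogen pool differed with these values. Try4 made up 19.3% of the implied pool in knockout and 4.16% in control pancreas. Prss2 made up 7.65% in knockout and 19.0% in control. Try5 remained the largest part, with 28.1% in knockout and 34.5% in control. Prss3 made up 26.5% in knockout and 21.0% in control, so Prss3 and Try5 were nearly level in knockout pancreas. Try10 made up 10.0% and 9.02%, Prss1 7.90% and 9.70%, and 2210010C04Rik 0.62% and 2.68%, in knockout and control in this order. These shares are descriptions without a test, and they inherit the uncertainty of the single copies.

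The values did not run in order along the locus. Try4 and Try5 lie next to each other on opposite strands and had unshrunken log2 fold changes of 1.20 and -1.30. The lowest values were at both ends, 2210010C04Rik on one side and Prss2 on the other. The copies between them were Gm5771, at -0.87 ± 0.35 (SE), and Gm10334, at -0.71 ± 0.30, values close to those of Prss3 and Try10. In the authors' deposited table neither was called (adjusted p = 0.443 and 0.572).

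**Figure D4:**
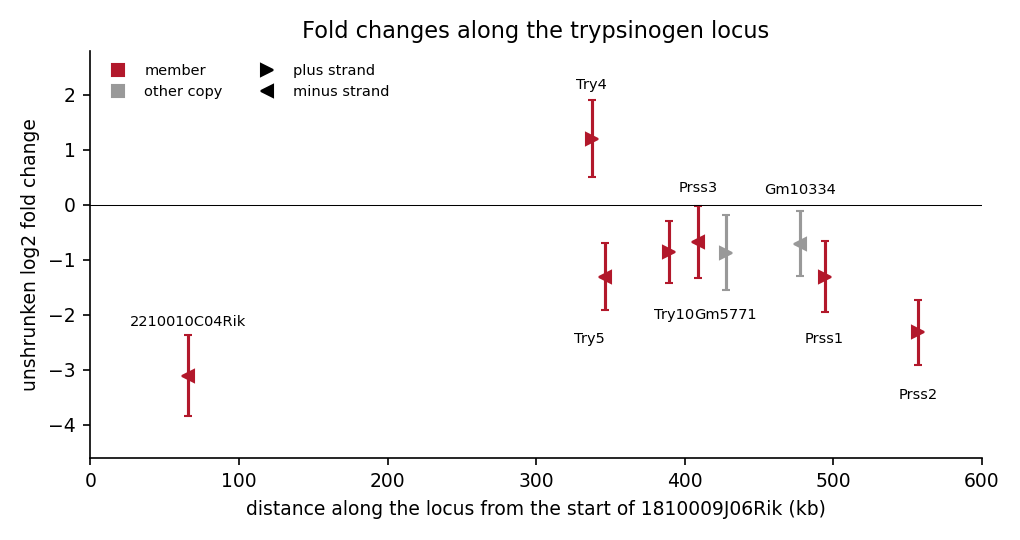
Unshrunken log2 fold changes with 95% intervals (y axis) against distance along the locus in kb (x axis) for the 7 members (red) and 2 other copies (grey); arrowheads give the strand. The neighbours Try4 and Try5, at 337.5 and 346.5 kb, have 1.20 and -1.30, and the ends of the row, 2210010C04Rik and Prss2, have the lowest values.

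The outermost copies had few reads. In the authors' deposited table Gm2663 had a mean count of only 33.5 and was called higher (log2 fold change 8.44 ± 3.35, adjusted p = 0.00614); its unshrunken size could not be determined. Its neighbour 1810009J06Rik, with which it shares 88.5% of its 31-base stretches, had in the authors' deposited table a mean count of 39.2 and a value of -0.01 ± 0.22 (adjusted p = 1.00). How reads were divided between these 2 was not tested.

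Promoters are shown for Prss1, Prss2, 2210010C04Rik and Try4, as 3 genes that fell and the one with a positive sign. Each runs from 250 bases before to 50 after the RefSeq start (GRCm38.p6), 5′ to 3′ on the strand of the gene. Capitals mark matches on either strand to 4 short motifs of factors that act in acinar cells: the E-box CANNTG, bound by Ptf1a and other basic helix-loop-helix factors, TGGGAA, the core bound by RBPJ and RBPJL, AAGGTCA, the core bound by NR5A2, and the forkhead core TGTTTAC. No 2 matches overlap in the 4 windows printed.
Prss1, chr6:41458680-41458979, plus strand: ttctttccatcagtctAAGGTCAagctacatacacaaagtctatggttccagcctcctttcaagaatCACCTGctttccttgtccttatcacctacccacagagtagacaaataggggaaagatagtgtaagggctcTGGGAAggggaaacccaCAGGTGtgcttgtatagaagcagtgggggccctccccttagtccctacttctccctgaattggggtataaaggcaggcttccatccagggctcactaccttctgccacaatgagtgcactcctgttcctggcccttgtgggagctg
Prss2, chr6:41521526-41521825, plus strand: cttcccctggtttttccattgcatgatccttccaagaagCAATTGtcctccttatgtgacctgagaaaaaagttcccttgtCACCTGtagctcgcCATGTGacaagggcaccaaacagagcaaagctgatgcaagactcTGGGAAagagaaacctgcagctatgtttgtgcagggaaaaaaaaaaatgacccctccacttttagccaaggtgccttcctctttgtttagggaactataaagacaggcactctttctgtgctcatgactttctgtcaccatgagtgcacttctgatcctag
2210010C04Rik, chr6:41035460-41035759, minus strand: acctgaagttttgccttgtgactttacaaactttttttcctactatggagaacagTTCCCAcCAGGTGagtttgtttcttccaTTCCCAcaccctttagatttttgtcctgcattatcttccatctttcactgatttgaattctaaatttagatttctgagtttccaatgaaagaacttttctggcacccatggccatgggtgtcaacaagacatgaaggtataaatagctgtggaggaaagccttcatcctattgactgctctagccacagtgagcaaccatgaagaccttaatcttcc
Try4, chr6:41302022-41302321, plus strand: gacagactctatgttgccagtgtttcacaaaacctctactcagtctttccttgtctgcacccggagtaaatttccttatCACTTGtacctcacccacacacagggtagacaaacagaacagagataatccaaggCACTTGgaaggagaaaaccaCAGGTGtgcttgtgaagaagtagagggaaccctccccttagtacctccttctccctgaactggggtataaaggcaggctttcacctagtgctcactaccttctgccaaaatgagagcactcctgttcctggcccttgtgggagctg

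RefSeq windows were given for 5 of the 7 members, the 4 printed and Prss3. All 5 held an E-box, as did 72.3% of 32851 promoter windows of the same length. TGGGAA was in 3 of the 5, against 25.6% of all windows: in Prss1 at -113 and in Prss2 at -111, counted from the start, and on the opposite strand in 2210010C04Rik at -195 and -167. The windows of Prss3 and Try4 held no match to it. Among the other copies, TGGGAA was in the window of Gm5771 at -93, a gene that was not called. It was also in that of Gm2663, at -211 on the opposite strand, a gene called higher. Gm10334, which was not called, held none. The NR5A2 core AAGGTCA was in the Prss1 window, at -234, and in that of Gm5771, at -214, against 4.72% of all windows. The forkhead core was in 0 of the 5, against 3.65%. A TATAAA box, a motif added after the sequences were seen, lay within the last 50 bases before the start in all 5, against 2.63% of all windows. These matches are descriptions of letters, and with 5 windows no relation to the fold changes was tested.

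Set beside other acinar enzymes, most trypsinogens lay towards the upper end of the range. Among the 18 well determined genes of the acinar enzyme list, 1 was lower than 2210010C04Rik: Clps, the lipase cofactor colipase, at -3.19 ± 0.27 (SE). Prss2 had 6 of the 18 below it. Prss1 and Try5 each had 16 of the 18 below them, Try10 and Prss3 each 17, and Try4 all 18. Relative to the median of these enzymes, which adds 1.96 to every gene, 2210010C04Rik was the 1 member still called lower, at -1.15 (adjusted p = 0.00895), where 0.429% of all genes were called lower. Try4 at 3.16 (adjusted p = 2.05e-16), Prss3 at 1.29 (0.000753) and Try10 at 1.10 (0.000804) were then called higher, in a test that takes the median as fixed. The same constant made 41.4% of all genes called higher, so 3 of 7 members is near the background and shows nothing particular to them.

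**Figure D5:**
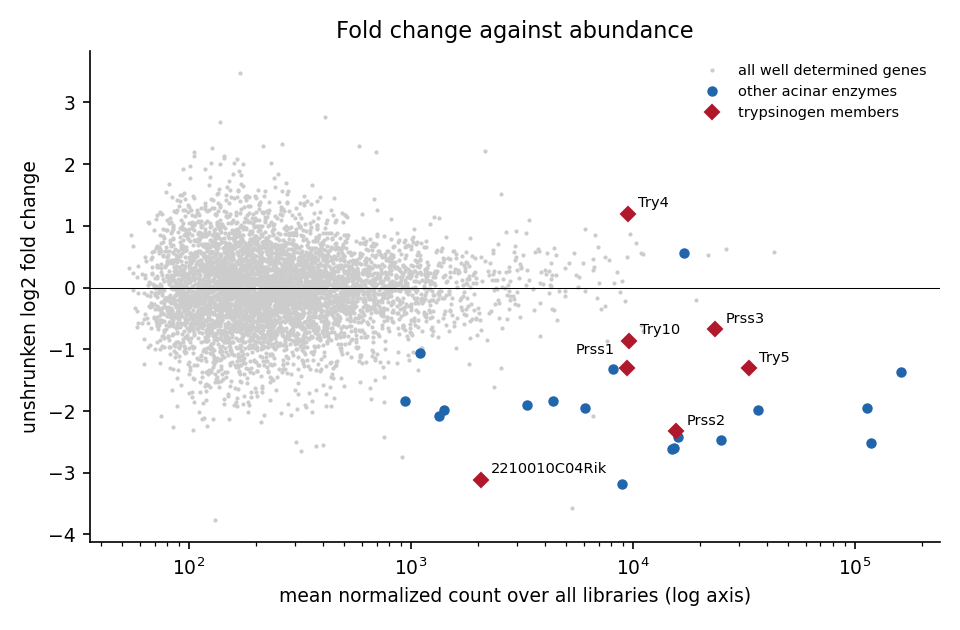
Unshrunken log2 fold change (y axis) against mean normalized count over all libraries (x axis, log scale) for the 5711 well determined genes (grey), 18 other acinar enzymes (blue) and the 7 trypsinogen members (red). Members lie from -3.11 (2210010C04Rik) to 1.20 (Try4), and Try4 lies above all 18 other acinar enzymes.

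Zymogens that trypsin activates in the gut were mostly lower. All 12 listed are also on the acinar enzyme list, so they are not a separate group of genes. Of the 12, 11 were in the table, and 6 were called lower and 0 higher. The other 5 did not pass the authors' DESeq2 test (1 was higher at an unadjusted p under 0.05). Over all 12108 genes 0.479% were called lower, and 11.8% of the 161 at least as abundant as the least abundant member. The median unshrunken value of the zymogens was -1.94 over 9 well determined genes. Among the called genes were Clps, the carboxypeptidase genes Cpa1 and Cpb1, and the elastase genes Cela2a and Cela3b. Cela2a was at -2.46 ± 0.30 (SE), and Cpb1 at -2.61 ± 0.70, both unshrunken. Ctrb1, chymotrypsinogen B and the most abundant gene of the list, had an unshrunken value of -1.37 ± 0.44 and, in the authors' deposited table, an adjusted p of 0.134. Cela1, at 0.56 ± 0.28, was the one well determined acinar enzyme outside the locus with a positive value.

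Genes that restrain or start trypsin activity were a mixed group. Of 19 listed, 13 were in the table and 11 had an adjusted p, with 1 called lower, 1 higher and 9 not called. Over all 12108 genes, 0.479% were called lower and 0.264% higher. In the authors' deposited table Spink1, the trypsin inhibitor that acinar cells pack with the zymogens, was 3.19-fold lower, with a log2 value of -1.67 ± 0.61 (adjusted p = 0.0312). Its mean count of 359 compares with the family's sum of 103142. There, in the authors' deposited table, Serpina1d, a mouse alpha-1-antitrypsin gene made in liver, was called higher with a mean count of 43.9 (adjusted p = 0.0312); its size is undetermined. Serpini2, a serpin made by acinar cells, had an unshrunken value of -1.60 ± 0.47 (adjusted p = 0.0751). Ctsb, the lysosomal protease that can activate trypsinogen inside acinar cells, was at 0.34 ± 0.32, and Ctsl, which degrades it, at 0.23 ± 0.33; neither was called. Tmprss15, enteropeptidase, is an intestinal gene and had a mean count of 2.23, with no adjusted p.

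Where 0.479% of 12108 genes were called lower and 0.264% higher, trypsin-like proteases encoded elsewhere gave 1 called gene of 19 with an adjusted p. This was Tmprss2, an epithelial membrane protease, which in the authors' deposited table had a mean count of 25.8, a negative sign and an adjusted p of 0.0467; its size is undetermined. Klk1, the tissue kallikrein that is also made in pancreas and the most abundant of this list, was at -0.54 ± 0.34 (SE) and was not called (adjusted p = 0.939). Tpsb2, a mast cell tryptase, was at 1.22 ± 0.65, and Htra1 at 0.23 ± 0.58; neither passed. Of the trypsin-sensitive receptors, F2r had an unshrunken value of 1.06 ± 0.87 and was not called.

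The genes with a mean count of at least 1000 whose unshrunken fold change was nearest to that of Try5, out of 405, included Prss1, Chst2, Arhgdig and Ctrb1, within 0.06 log2 units. Nearest to Try4 were Fndc1, Ttr, Rmrp, 2810433D01Rik and Col6a6, within 0.17. Likeness here is the distance between 2 fold changes in 1 comparison of 2 groups, and none of the genes near Try4 was called.

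Markers of other cells and of the epithelium were read in the same comparison. Over all 14681 genes, 8027 had a positive sign and 6654 a negative one. At an unadjusted p under 0.05, 2.7% of 14386 genes were lower and 2.7% higher. The authors' DESeq2 test called 0.479% of 12108 genes lower and 0.264% higher. In bulk samples, fewer acinar cells and less RNA per acinar cell cannot be told apart. Of the 6 acinar transcription factors listed, 0 were called by DESeq2 and 0 had a raw p under 0.05. For 6 genes this is near the shares over all genes and does not show that they were unchanged. Their unshrunken values ran from -0.08 to 0.80, and that of Ptf1a was 0.34 ± 0.93 (SE). The implied counts of the 6 summed to 2818 in knockout and 2574 in control. Of 15 pan-epithelial genes in the table, 14 had a negative sign and 1 was called lower, with an implied sum over 11 well determined genes of 6594 in knockout and 9769 in control. Of 9 mesenchyme genes, 8 had a positive sign and 0 were called (4 were higher at an unadjusted p under 0.05), with an implied sum of 82489.8 in knockout and 55176 in control. All 9 liver genes in the table had a positive sign and 0 were called (4 were higher at an unadjusted p under 0.05). The implied sum over 3 well determined genes, Apoa1, Ttr and Afp, was 3972 in knockout and 1453 in control. That sum leaves out Alb, the most abundant of the 9 with a mean count of 3336, because its size is undetermined. Of the 3 erythroid genes examined, Gata1 was called higher, and of 6 endocrine genes 4 were called lower. No marker in the table was at 0, since its smallest mean count was 1.06. The part of cell composition in the trypsinogen values was not tested. Relative to pan-epithelial genes, which adds 0.64 to every log2 fold change, 2210010C04Rik at -2.47 and Prss2 at -1.68 were still called lower, and Prss1 and Try5, both at -0.67, were not; over all genes 0.322% were then called lower and 1.67% higher.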

How the data were processed

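Per the submitters' processing notes, the authors used Trimmomatic, Salmon and DESeq2 on GRCm38 (mm10); no source used here states versions, annotation or design formula. The authors deposited 5 values per gene: the mean normalized count of the 6 libraries together (a signal), a shrunken log2 fold change and its error in log2 units, and 2 p-values, raw and adjusted. The strand setting and the treatment of reads that fit several copies are not stated.

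Every p printed for a gene is the authors' DESeq2 p, adjusted over 12108 genes, except those after rescaling. The latter were computed here with Benjamini-Hochberg adjustment over the same genes, with each rescaling constant taken as fixed. Of the deposited fold changes, 92.7% lay within 0.1 of 0. Unshrunken values were reconstructed assuming a Cauchy prior, whose scale of 0.31 was fitted to the deposited p-values; the z matched within 0.1 for 90.8% of genes with a p. Matched genes whose SE did not exceed 1 are termed well determined. The arithmetic was tested on simulated data. Group means are implied by equal groups of 3.

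Transcripts came from GENCODE M21 (GRCm38), promoters from RefSeq (GRCm38.p6); the Entrez gene IDs of all 7 members matched RefSeq. Identity was computed with Biopython 1.88 by global alignment; values were handled in Python 3.11.15. The files hold no per-library values, so depth per sample and its precision are unknown and the planned tests on per-library counts were not run. The members and lists were chosen with earlier results of these data known. Named are all members, and of each list the called genes and the 3 with the highest mean count, with further list members named after their values were seen; some genes the rule takes are not described. The series' single-cell experiment was not analysed here.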

Additional observations from a re-analysis of the deposited data

How the results depend on the processing

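The table holds no values of single libraries. No paired analysis was possible because the deposited columns carry no replicate, and leaving out each replicate was not run for the same reason. The 4 members called lower were 3 at an adjusted p under 0.01 and 6 at an unadjusted p under 0.05; they were 4 with no filter on the mean count and with a mean count of at least 50. Members called higher were 0, but 1 (Try4) at an adjusted p under 0.1 and at an unadjusted p under 0.05. Relative to pan-epithelial genes, 2 were called lower and 1 higher, and the family total was -0.43. Over all genes this scaling gave 39 lower and 202 higher, against 58 and 32. Relative to the median of other acinar enzymes, 1 was called lower and 3 higher, and the family total turned to 0.80. Prss1 turned to 0.66, Try5 to 0.66, Try10 to 1.10 and Prss3 to 1.29; the added constant of 1.96 makes these turns, and over all genes it gave 52 lower and 5014 higher. The family total was -0.85 with the deposited shrunken values. Without 1 member at a time it ran from -1.26 (without Try4) to -0.82 (without Prss2). The other alternatives, the prior scale, the median of all genes and the copies of the locus, moved it by less than its SE of 0.14. The depth behind single copies cannot be had from this table.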
